A study of Homo sapiens with 8 samples.

Results

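Genes that define the epithelial-mesenchymal switch, 10 in number, were followed in the FGFR inhibitor-sensitive non-small cell lung cancer lines NCI-H1581 and NCI-H1703 and in variants of both lines selected for resistance to the FGFR inhibitor CPL304110. The 10 genes are the cadherins CDH1 and CDH2, the intermediate filament gene VIM, the adhesion molecule EPCAM, the splicing regulators ESRP1 and ESRP2, and the transcription factors ZEB1, ZEB2, SNAI1 and SNAI2. They were taken by symbol from the 37441 genes of the count table, and all 10 were found in it. NCI-H1581 and NCI-H1703 were the sensitive variants and had no selection with the inhibitor. NCI-H1581R and NCI-H1703R were grown in rising concentrations of CPL304110 from 50 nM, up to 2.5 uM for NCI-H1581R and 5 uM for NCI-H1703R. RNA was collected 24 h after a change of medium, in 2 replicates of each of the 4 variants, which gives 8 libraries. Each resistant variant is a single selected population, so the comparison of variants rests on 1 selection in each line. The media of the 2 lines differed (DMEM/F12 for NCI-H1581, RPMI for NCI-H1703, both with serum), so line and medium cannot be told apart. The sources used here do not say whether the fresh medium held the inhibitor at harvest.

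Epithelial cells are held together by E-cadherin, the product of CDH1, and by EPCAM, while mesenchymal cells carry N-cadherin, the product of CDH2, and a vimentin cytoskeleton. ZEB1, ZEB2, SNAIL (SNAI1) and SLUG (SNAI2) are zinc finger repressors that bind E-box elements in the promoters of CDH1 and other epithelial genes. ESRP1 and ESRP2 drive epithelial splicing, including the choice of the FGFR2 isoform found in epithelia, and are themselves known targets of ZEB1. In lung cancer cells a passage from the epithelial to the mesenchymal state is often discussed together with tolerance of kinase inhibitors.

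The results turn on ZEB1, ZEB2 and CDH2, whose change with resistance differed between the lines, and the 250 bases before a start site of each are printed here because these factors act through E-boxes in promoters. The windows come from the RefSeq promoter table on GRCh38.p14, which holds 4 of the 10 genes (ZEB1, ZEB2, CDH2 and VIM). Capitals mark the E-box CANNTG, searched on one strand because the pattern reads the same on the other. The ZEB1 window is chr10:31318167-31318416 on the plus strand, the first of 7 listed start sites. The ZEB2 window is chr2:144520120-144520369 on the minus strand, and the CDH2 window is chr18:28177131-28177380 on the minus strand, the upstream one of 2 start sites.
ZEB1: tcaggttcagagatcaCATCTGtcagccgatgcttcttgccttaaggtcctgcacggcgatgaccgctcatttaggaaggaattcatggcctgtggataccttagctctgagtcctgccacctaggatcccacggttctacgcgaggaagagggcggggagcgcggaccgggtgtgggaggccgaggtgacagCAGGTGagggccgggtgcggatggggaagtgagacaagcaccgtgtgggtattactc
ZEB2: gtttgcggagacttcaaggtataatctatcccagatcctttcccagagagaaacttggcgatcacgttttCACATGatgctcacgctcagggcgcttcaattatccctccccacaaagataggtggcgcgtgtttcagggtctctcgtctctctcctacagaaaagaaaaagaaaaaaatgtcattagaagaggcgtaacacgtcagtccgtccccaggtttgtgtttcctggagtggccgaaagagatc
CDH2: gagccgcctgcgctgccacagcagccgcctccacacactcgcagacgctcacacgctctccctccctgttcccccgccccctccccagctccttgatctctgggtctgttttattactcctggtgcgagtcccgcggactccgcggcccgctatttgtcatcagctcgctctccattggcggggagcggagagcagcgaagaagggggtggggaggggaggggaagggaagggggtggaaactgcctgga
The ZEB1 window holds 2 E-boxes, and the one that begins 57 bases before the start site reads CAGGTG, the form that ZEB and SNAIL factors prefer. The ZEB2 window holds 1 E-box, CACATG, which begins 180 bases before the start site, and this CDH2 window holds none. The outcome depends on the start site: the downstream CDH2 window holds 1 E-box, CAGATG, and of the 7 ZEB1 windows 3 hold none and 2 hold CAGGTG or CACCTG. Of all 35116 promoters in the table, 61.8% hold CANNTG and 17.5% hold CAGGTG or CACCTG in the same 250 bases. The G and C content is 59.2% for ZEB1, 48.0% for ZEB2 and 66.0% for CDH2, against a median of 58.0% over all promoters.

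Total counts ranged from 33800389 to 40031710 per library, so that 3 counts, taken as the lowest level that can be told from 0, correspond to 0.0749 to 0.0897 CPM (counts scaled to a common library total). This range reflects only the scaled totals of the libraries and is not an interval of error. Markers of blood and vessel cells were low: CD3E was at 0 in every library, the summed leukocyte markers (PTPRC, CD3E and CD14) reached at most 0.399 CPM, and the summed endothelial markers (PECAM1, CDH5 and VWF) at most 0.449 CPM. In each of these lists at most 1 of 3 markers exceeded 3 counts in both libraries of any variant. The keratins KRT8, KRT18 and KRT19, which define epithelial cells, summed to 4.77 to 6.64 CPM in NCI-H1581 and NCI-H1581R. The sum was 71.8 to 74.0 CPM in NCI-H1703 and 6.04 to 7.11 CPM in NCI-H1703R. Most of the sum in NCI-H1703 was KRT18, at 64.3 and 65.4 CPM, beside 7.27 and 4.40 for KRT8 and 2.35 and 1.97 for KRT19. Fibroblast markers differed by line: DCN and LUM were high in NCI-H1581 and PDGFRA in both NCI-H1703 variants, and the 4 markers, with COL1A1, summed to about 209 CPM in both libraries of NCI-H1581, 23.6 to 35.0 CPM in NCI-H1581R and 1080 to 1300 CPM in the NCI-H1703 variants. Markers of lung tumour types also moved with resistance: NKX2-1, a factor of lung adenocarcinoma, stood at 13.6 and 15.0 CPM in NCI-H1581 and 40.1 and 59.5 in NCI-H1581R, and TP63, a factor of squamous cells, at 6.26 and 5.79 against 27.8 and 31.2. SOX2 went from 38.0 and 37.2 CPM in NCI-H1703 to 0.555 and 0.185 in NCI-H1703R, and the neuroendocrine marker SYP stood at 64.1 to 102 CPM in the NCI-H1581 variants and at 8.01 to 18.3 CPM in the NCI-H1703 variants. The part of these markers in the results was not tested. KRT5, a basal keratin, stood at 35 to 47 counts in every second replicate and at 0 or 1 count in every first replicate, and it was the only gene of the table with at least 20 counts in all second and at most 3 in all first replicates. Its part in the low-count genes CDH1 and ESRP1 was not tested. In bulk RNA, fewer cells of a kind and less RNA per cell cannot be told apart.

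**Figure D1:**
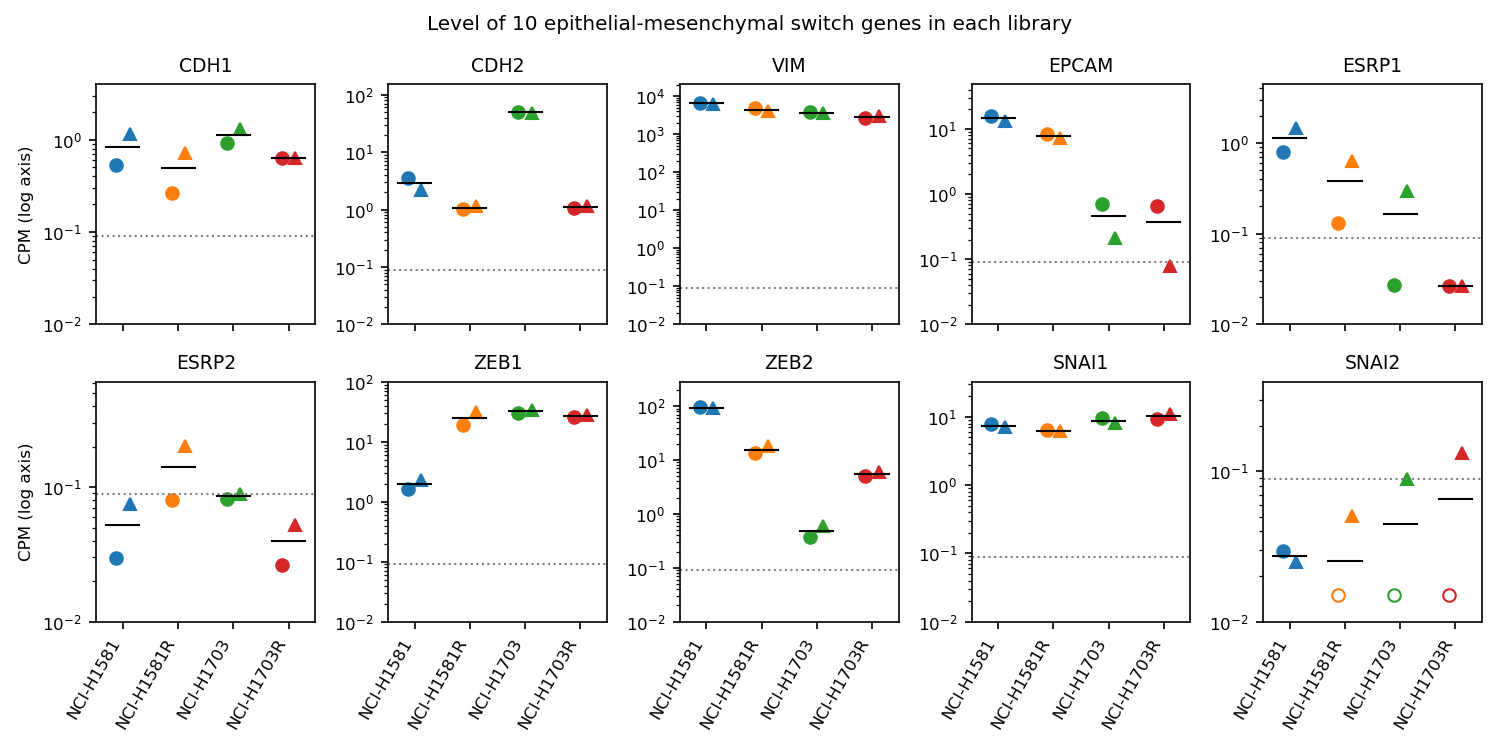
Level of the 10 genes in each library in CPM on a log axis, by variant. Circles are replicate 1, triangles replicate 2, black bars the mean of 2 libraries, the dotted line 3 counts in the library with the lowest total, and open symbols 0 counts, drawn at a fixed height. CDH2 stands apart in NCI-H1703, ZEB1 is low in NCI-H1581 alone, ZEB2 spans the 4 variants from 93.0 to 0.488 CPM, and ESRP2 and SNAI2 lie around the dotted line.

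All 10 genes reached 10 counts over the 8 libraries and were tested, but ESRP2 and SNAI2 did so with at most 8 and 5 counts in any library, and no fold change is given for them. Resistance to CPL304110 moved few of the 10 genes, and not the same way in both lines. In NCI-H1581R, ZEB1 rose, while ZEB2 and EPCAM fell. In NCI-H1703R, CDH2 fell by 5.42 on the log2 scale and ZEB2 rose. CDH1, the gene that gives the switch its usual readout, stayed at no more than 46 counts in every library. With edgeR and an adjusted p under 0.1, 3 of the 10 genes were called in NCI-H1581R against NCI-H1581 (1 higher, 2 lower), where 15.1% of all 18203 genes tested were called, 7.63% higher and 7.44% lower. In NCI-H1703R against NCI-H1703, 2 of the 10 were called (1 higher, 1 lower), where 14.7% of all genes were called, 7.06% higher and 7.67% lower. With so few members a single gene shifts their share strongly, and these counts are not read as differing from the background. The replicates of the compared variants did not overlap for 8 of the 10 genes in NCI-H1581 and 7 of the 10 in NCI-H1703, where 50.6% and 51.3% of all genes did not overlap. With the replicate number as a block, 4 members and 34.9% of all genes were called in NCI-H1703R, against 2 members and 14.7% without it.

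**Figure D2:**
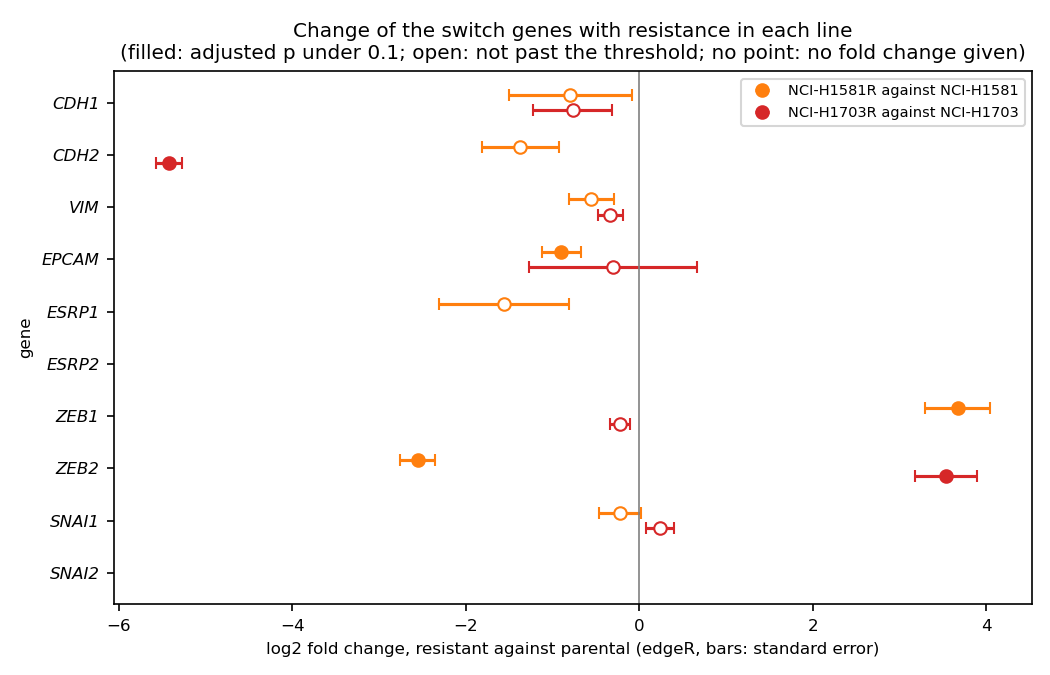
Log2 fold change of the 10 genes in the resistant against the sensitive variant of each line, with standard errors as bars. Filled points passed an adjusted p of 0.1, open points did not, and genes with no point have no fold change given. ZEB2 lies at -2.56 in NCI-H1581R and at 3.53 in NCI-H1703R, ZEB1 at 3.67 and -0.22, and CDH2 at -1.37 and -5.42.

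CDH1 (ENSG00000039068, GRCh38 chromosome 16, 68737292 to 68835537) encodes E-cadherin, the adhesion receptor of epithelial junctions. Its counts were 18 and 46 in NCI-H1581, 10 and 28 in NCI-H1581R, 34 and 44 in NCI-H1703, and 24 and 24 in NCI-H1703R. All 8 libraries were thus low, and only in NCI-H1703 did both libraries exceed those of the resistant variant. The log2 fold change was -0.80 (SE 0.712, adjusted p = 0.568) in NCI-H1581R and -0.77 (SE 0.459, adjusted p = 0.376) in NCI-H1703R, and neither passed the test. In NCI-H1581, NCI-H1581R and NCI-H1703 the second replicate was the higher one, as it was for KRT5.

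CDH2 (ENSG00000170558, chromosome 18, 27932879 to 28177946) encodes N-cadherin, the cadherin of neural and mesenchymal cells. Its counts were 1857 and 1626 in NCI-H1703 but 41 and 44 in NCI-H1703R, that is 49.4 ± 1.11 against 1.12 ± 0.0548 CPM (SD, n = 2). This was a 43.0-fold lower level (log2 fold change -5.42, SE 0.151, adjusted p = 0.000199), and the groups did not overlap. In the other line the counts were 119 and 87 in NCI-H1581 and 38 and 45 in NCI-H1581R, so that NCI-H1703 was the only variant with more than 119 counts. The change in NCI-H1581R was -1.37 (SE 0.442) and did not pass the test (adjusted p = 0.114), although it did with the replicate number as a block (adjusted p = 0.089), with at least 10 counts in every library (adjusted p = 0.0585) and in a single fit of 8 libraries (adjusted p = 0.0202). The resistant variants stood at 1.08 ± 0.0943 CPM (NCI-H1581R) and 1.12 ± 0.0548 CPM (NCI-H1703R), a log2 difference of 0.09 (SE 0.382) that did not pass the test (adjusted p = 0.867). The promoter window printed for CDH2 belongs to 1 of its 2 listed start sites, and the gene counts do not separate them.

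As a share of the summed CDH1 and CDH2 level per length of transcript, CDH2 made up 98.1% ± 0.566 in NCI-H1703 and 67.5% ± 1.13 in NCI-H1703R (SD, n = 2). In NCI-H1581 and NCI-H1581R the share was 78.8% ± 13.9 and 73.6% ± 11.5, which differed by less than the spread between replicates. These shares depend on the length taken for each gene. With the length of the union of exons they were 96.9% in NCI-H1703, 55.6% in NCI-H1703R, 69.8% in NCI-H1581 and 63.05% in NCI-H1581R. With the MANE Select transcript they were 98.15%, 67.95%, 79.1% and 73.9% in the same order. In NCI-H1703R the lower share came with less CDH2 and with CDH1 counts that were not higher.

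VIM (ENSG00000026025, chromosome 10, 17228241 to 17237593) encodes vimentin, the main intermediate filament protein of mesenchymal cells. It was the most abundant of the 10 genes per length in every variant, and by level per length it ranked 10 in NCI-H1581, 12 in NCI-H1581R, 16 in NCI-H1703 and 22 in NCI-H1703R among 17177 genes. Its counts were 226151 and 244224 in NCI-H1581, 178310 and 154747 in NCI-H1581R, 137474 and 121503 in NCI-H1703, and 99631 and 116300 in NCI-H1703R. In both lines the resistant libraries lay below the sensitive ones. The log2 fold changes were -0.55 (SE 0.263, adjusted p = 0.264) in NCI-H1581R and -0.34 (SE 0.141, adjusted p = 0.216) in NCI-H1703R, and neither passed the test. DESeq2 called VIM lower in both lines, with adjusted p = 0.0114 and 0.0082, and the replicate block called it lower in NCI-H1703R (adjusted p = 0.00767). In NCI-H1581R it also passed in a single fit of 8 libraries (adjusted p = 0.0735) and without the first NCI-H1581R replicate (adjusted p = 0.0101).

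EPCAM (ENSG00000119888, chromosome 2, 47345158 to 47387601) encodes a surface glycoprotein of epithelial cells and carcinomas. In NCI-H1581 it had 537 and 524 counts, and in NCI-H1581R 309 and 284 counts, with no overlap. The level fell 1.86-fold, from 14.5 ± 2.02 to 7.71 ± 0.704 CPM (log2 fold change -0.90, SE 0.225, adjusted p = 0.0568). Without the first or the second NCI-H1581 replicate the adjusted p was 0.384 or 0.236. In NCI-H1703 the counts were 26 and 7, and in NCI-H1703R 25 and 3, so the groups overlapped at a level near 0 and the log2 fold change of -0.30 (SE 0.971, adjusted p = 0.912) did not pass the test. The first replicate was the higher one in both NCI-H1703 variants.

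ESRP1 (ENSG00000104413, chromosome 8) encodes an epithelial splicing factor. It had 27 and 59 counts in NCI-H1581, 5 and 25 in NCI-H1581R, 1 and 10 in NCI-H1703, and 1 and 1 in NCI-H1703R. The 3 variants with more than 1 count in either library had more in the second replicate, as for KRT5. The log2 fold change in NCI-H1581R was -1.56 (SE 0.747, adjusted p = 0.268) and did not pass the test. ESRP2 (ENSG00000103067, chromosome 16, 68229033 to 68238102), its paralog, had 1 to 8 counts in the 8 libraries, with the 8 in NCI-H1581R. Its exons overlap those of NFATC3 on the other strand, and the strand setting of the counting is not given, so its few counts are uncertain.

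ZEB1 (ENSG00000148516, chromosome 10, 31318495 to 31529814) encodes a repressor of CDH1 and of the ESRP genes. Its counts rose from 56 and 92 in NCI-H1581 to 711 and 1246 in NCI-H1581R. This was a 12.7-fold rise, from 1.98 ± 0.449 to 25.3 ± 9.02 CPM (log2 fold change 3.67, SE 0.374, adjusted p = 0.0018), although the resistant replicates differed from each other. The counts in the other line were 1133 and 1123 in NCI-H1703 and 965 and 1077 in NCI-H1703R, a change of -0.22 (SE 0.116, adjusted p = 0.316) that passed the test only with the replicate block (adjusted p = 0.0867). NCI-H1581 was thus the one variant with little ZEB1, and NCI-H1581R reached 18.9 and 31.7 CPM, beside 25.5 to 33.6 CPM in the 4 NCI-H1703 and NCI-H1703R libraries. The direction in NCI-H1581R was the same in each of the alternatives run, leaving out single libraries included, with log2 fold changes from 3.23 to 4.00.

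ZEB2 (ENSG00000169554, chromosome 2, 144364364 to 144521057) encodes the paralog of ZEB1 and moved in opposite directions in the 2 lines. In NCI-H1581 it had 3196 and 3652 counts, and in NCI-H1581R 508 and 702. The level fell 5.89-fold, from 93.0 ± 2.58 to 15.7 ± 3.06 CPM (log2 fold change -2.56, SE 0.203, adjusted p = 0.000576). In NCI-H1703 it had 14 and 20 counts, and in NCI-H1703R 191 and 226. The level rose 11.6-fold, from 0.488 ± 0.155 to 5.51 ± 0.647 CPM (log2 fold change 3.53, SE 0.359, adjusted p = 0.0048). Without the first or the second NCI-H1703 replicate, which leaves 1 library of that variant, the rise was 3.21 or 3.90 with an adjusted p of 0.123 or 0.105. The groups did not overlap in either line.

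**Figure D3:**
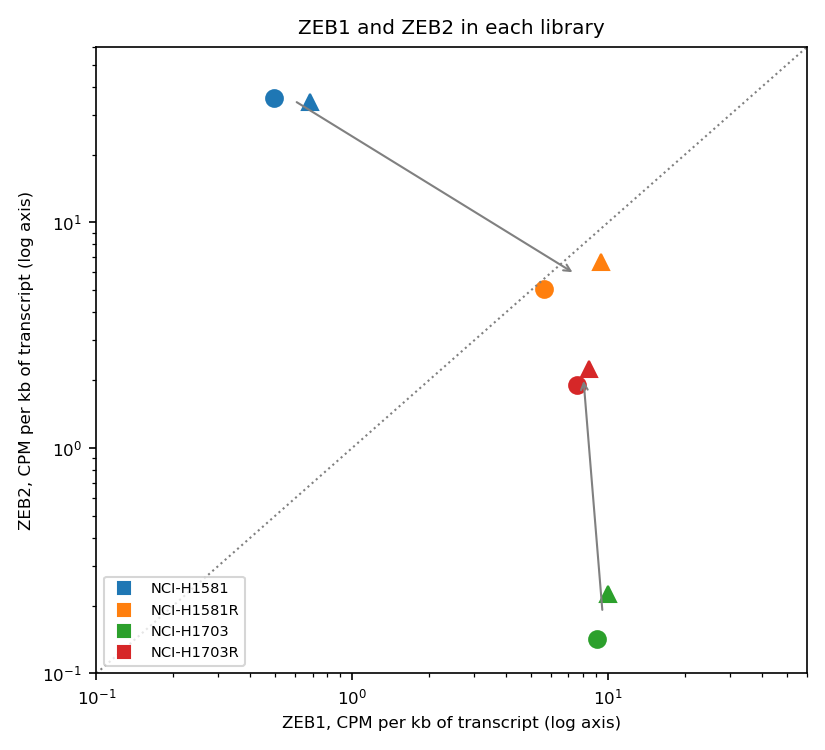
ZEB1 against ZEB2 in each library in CPM per kb of transcript, both on log axes. Circles are replicate 1, triangles replicate 2, the dotted line marks equal levels, and arrows run from the mean of the sensitive to the mean of the resistant variant. NCI-H1581 lies far on the ZEB2 side, NCI-H1703 on the ZEB1 side, and both resistant variants lie nearer to the line of equal levels.

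Per length of transcript, ZEB1 made up 1.66% ± 0.410 of the summed ZEB1 and ZEB2 level in NCI-H1581 and 55.5% ± 4.17 in NCI-H1581R (SD, n = 2). In NCI-H1703 it made up 98.2% ± 0.495 and in NCI-H1703R 79.5% ± 0.707. The shares depend on the length taken for each gene: with the length of the union of exons they were 6.06%, 82.6%, 99.5% and 93.7% in the same order, and with the MANE Select transcript 3.22%, 71.1%, 99.1% and 88.4%. Under each of the 3 lengths the share was higher in NCI-H1581R than in NCI-H1581 and lower in NCI-H1703R than in NCI-H1703. The summed level of the pair also depends on the length. In NCI-H1581 it was 36.1 and 34.9 CPM per kb and in NCI-H1581R 10.7 and 16.1, with the MANE Select transcript 10.5 and 10.2 against 4.64 and 7.26, and with the union of exons 3.82 and 3.75 against 2.70 and 4.34, of which only the last overlap. In NCI-H1703 it was 9.24 and 10.2 CPM per kb and in NCI-H1703R 9.47 and 10.7, with the MANE Select transcript 5.20 and 5.72 against 4.84 and 5.43, and with the union of exons 3.56 and 3.91 against 3.14 and 3.51, of which only the last do not overlap.

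SNAI1 (ENSG00000124216, chromosome 20, 49982980 to 49988886) encodes SNAIL, and its mean lay between 6.31 and 10.2 CPM in the 4 variants. Its counts were 266 and 281 in NCI-H1581, 242 and 244 in NCI-H1581R, 351 and 275 in NCI-H1703, and 358 and 414 in NCI-H1703R. The log2 fold change was -0.23 (SE 0.241, adjusted p = 0.637) in NCI-H1581R and 0.23 (SE 0.162, adjusted p = 0.455) in NCI-H1703R, and neither passed the test. SNAI2 (ENSG00000019549, chromosome 8), which encodes SLUG, had 0 to 5 counts in the 8 libraries. In 3 of the 4 variants the first replicate was at 0.

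The change with resistance itself differed between the lines for 3 of the 10 genes, CDH2, ZEB1 and ZEB2, where 15.4% of all genes were called in this test, 6.93% with a change that was higher in NCI-H1703 and 8.47% lower. The test was the interaction of line and variant in a fit of all 8 libraries. For ZEB2 the change in NCI-H1703 exceeded that in NCI-H1581 by 6.07 (log2, SE 0.362, adjusted p = 3.99e-05). For ZEB1 the difference was -3.91 (SE 0.394, adjusted p = 0.000566), and for CDH2 it was -4.08 (SE 0.464, adjusted p = 0.00108). The same count of 3 was found in each alternative, the replicate block within each line and leaving out any library included. The differences for CDH1 (0.00, SE 0.598), VIM (0.20, SE 0.262), EPCAM (0.57, SE 0.955) and SNAI1 (0.44, SE 0.264) did not pass the test.

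The lines differed more between each other than their variants did. Between the sensitive variants, 6 of the 10 genes were called in NCI-H1703 against NCI-H1581 (2 higher, 4 lower), where 62.9% of all genes were called, 32.5% higher and 30.4% lower, so the members' share was near the background. Higher in NCI-H1703 were CDH2 (log2 difference 4.14, SE 0.194) and ZEB1 (4.00, SE 0.208). Lower were ZEB2 (-7.58, SE 0.202), EPCAM (-4.94, SE 0.367), ESRP1 (-2.87, SE 0.854) and VIM (-0.80, SE 0.0993), with adjusted p values from 1.76e-07 for ZEB2 to 0.0224 for ESRP1. Without the first NCI-H1703 replicate the ESRP1 difference was -1.93 (adjusted p = 0.144) and the EPCAM difference -6.07, and without the second they were -5.28 and -4.37. NCI-H1581 therefore held more EPCAM and ESRP1 beside more VIM and ZEB2, and NCI-H1703 more CDH2 and ZEB1.

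Between the resistant variants, 4 of the 10 genes were called in NCI-H1703R against NCI-H1581R (1 higher, 3 lower), where 52.5% of all genes were called, 25.9% higher and 26.7% lower. EPCAM (-4.33, SE 0.579, adjusted p = 0.00313) and ZEB2 (-1.47, SE 0.241, adjusted p = 0.00618) were lower in NCI-H1703R. The size for EPCAM rests on 25 and 3 counts in NCI-H1703R, and it was -6.53 without the first and -3.55 without the second of these libraries. ESRP1 was called lower (adjusted p = 0.0403), with 1 and 1 counts in NCI-H1703R against 5 and 25 in NCI-H1581R, and its fold is not given because NCI-H1703R was under 3 counts. SNAI1 was higher (0.73, SE 0.212, adjusted p = 0.042), but not with the replicate block (adjusted p = 0.132). ESRP1 and SNAI1 also lost their call without either NCI-H1703R replicate, with adjusted p from 0.114 to 0.338, and DESeq2 gave ESRP1 an adjusted p of 0.108. The VIM difference was -0.57 (SE 0.30, adjusted p = 0.182), which passed with DESeq2 (adjusted p = 0.0116) and in a single fit of 8 libraries (adjusted p = 0.0256). ZEB1 and CDH2, which separated the sensitive variants, differed by 0.13 (SE 0.272, adjusted p = 0.739) and 0.09 (SE 0.382, adjusted p = 0.867) between the resistant ones, and the difference of these differences is the interaction already given. These comparisons share libraries with those within each line.

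Ordered by level per length, VIM came first in every variant, at 4880 CPM per kb in NCI-H1581, 3300 in NCI-H1581R, 2800 in NCI-H1703 and 2170 in NCI-H1703R. ZEB2 was the second in NCI-H1581 at 34.9 CPM per kb, followed by EPCAM at 9.48 and SNAI1 at 4.37, and each was apart from its neighbour. In NCI-H1581R the places after VIM were held by ZEB1 at 7.50, ZEB2 at 5.88 and EPCAM at 5.04 CPM per kb, whose replicates overlapped from one to the next. In NCI-H1703, CDH2 was the second at 15.7 CPM per kb, above ZEB1 at 9.53 and SNAI1 at 5.19, all apart. In NCI-H1703R the order was ZEB1 at 8.01, SNAI1 at 5.98 and ZEB2 at 2.07 CPM per kb, all apart, with CDH2 at 0.357 and EPCAM at 0.242 overlapping below them. CDH1 lay between 0.132 and 0.303 CPM per kb in the 4 variants, and it overlapped at least 1 neighbour in the order in each of them. The order past VIM changes with the length used.

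Other cadherins were examined to see whether the switch genes CDH1 and CDH2 stand for the family. Of 13 tested members, 7 were called in NCI-H1581R (3 higher, 4 lower), where 15.1% of all genes were called. CDH6, a cadherin of kidney and neural crest, rose from 35 and 55 to 8536 and 9581 counts (log2 fold change 7.60, SE 0.25, adjusted p = 4.16e-05). CDH8, a neural cadherin, rose from 11 and 26 to 1269 and 1382 counts (6.10, SE 0.32). CDH12 fell by 1.84 and CDH24 by 1.54 on the log2 scale. CDH3, the placental cadherin of epithelia, which also stands in the junction list, fell from 222 and 332 to 24 and 36 counts, and CDH9 had 0 and 5 counts in NCI-H1581 and 166 and 258 in NCI-H1581R, both named after their values were seen. CTNNA2, the neural alpha-catenin that links cadherins to actin, went from 1 and 0 to 770 and 912 counts in the same variant and passed the test (adjusted p = 0.00015). Its fold is not given because NCI-H1581 was under 3 counts. In NCI-H1703R, 1 of the 13 was called with the main test and 3 with the replicate block, where 14.7% and 34.9% of all genes were called. This one was CDH4, the retinal cadherin, named after its values were seen, with 139 and 139 counts in NCI-H1703 and 0 and 0 in NCI-H1703R (adjusted p = 0.00781). Several of the 13 could hardly be called in NCI-H1703R. CDH9 and CDH11 had 0 counts in every NCI-H1703 and NCI-H1703R library, and CDH6, CDH10, CDH12 and CDH13 had at most 4. The median log2 fold change of the cadherins was -0.48 in NCI-H1581R and 0.00 in NCI-H1703R, where that of all genes was 0.04 and 0.00. The median in NCI-H1703R rests in part on those genes.

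**Figure D4:**
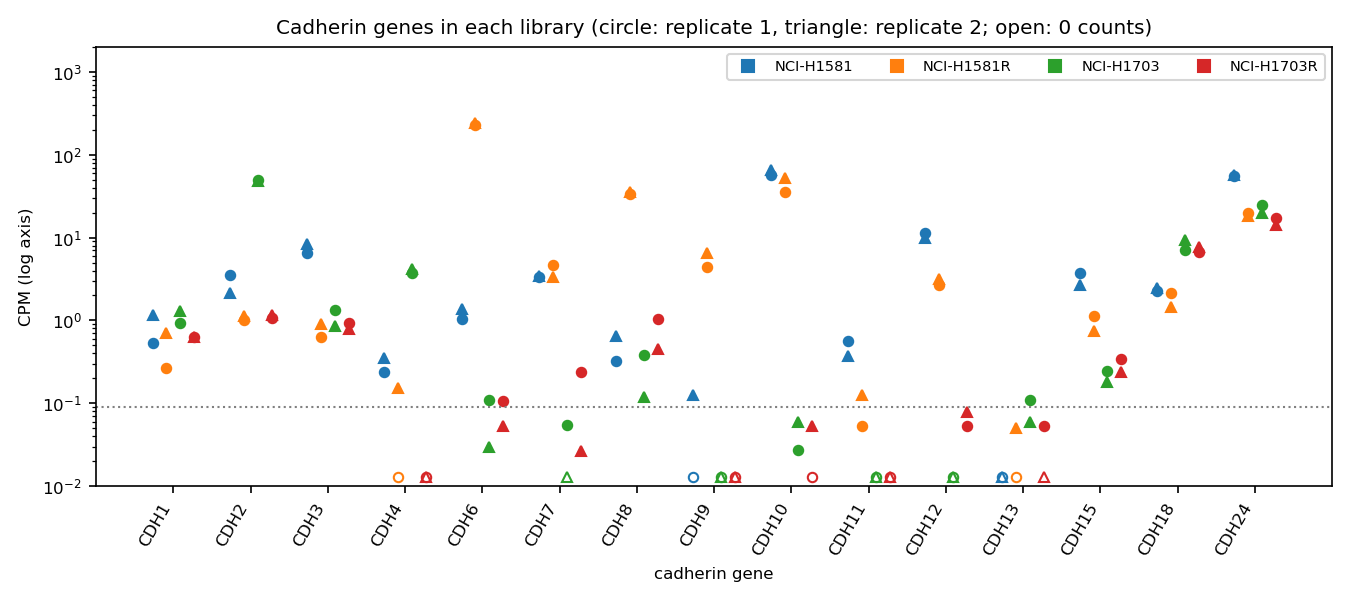
Cadherin genes in each library in CPM on a log axis, with 4 variants side by side for each gene. The dotted line is 3 counts, and open symbols at the base are 0 counts. CDH6, CDH8 and CDH9 are high in NCI-H1581R, and CDH2 and CDH4 are high in NCI-H1703.

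With the main test, no epithelial junction or surface gene was called higher in either line. Some of them could hardly be called in either direction, such as MARVELD3 with 0 to 6 counts and RAB25 with 2 to 12 counts per library. In NCI-H1581R, 3 of 24 were called, all lower, with a median log2 fold change of -0.32. With the replicate block 6 were called, both directions counted together. Of all genes 15.1% and 18.1% were called, and 7.63% were called higher without the block. SPINT1, an inhibitor of epithelial serine proteases, fell from 680 and 726 to 76 and 97 counts (-3.08, SE 0.25, adjusted p = 0.000691), and ERBB3, a receptor of the EGFR family, fell by 0.70 (adjusted p = 0.0926). In NCI-H1703R, 3 of 24 were called, all lower, with a median of -0.49. With the replicate block 6 were called, both directions counted together, and the shares of all genes were 14.7% and 34.9%. The counts without the block are near the background in both lines. LSR, a protein of tricellular junctions, fell from 805 and 774 to 157 and 142 counts (-2.47, SE 0.15, adjusted p = 0.00134), and PKP2, a desmosomal plakophilin, fell from 1673 and 1819 to 350 and 442 counts (-2.22, SE 0.17, adjusted p = 0.00193). Of 9 tested epithelial transcription factors, 3 were higher and 0 lower in NCI-H1581R, among them FOXA1, a pioneer factor, which rose from 55 and 84 to 510 and 604 counts (2.95, SE 0.28, adjusted p = 0.00136). The other two, named after their values were seen, were the grainyhead factors GRHL1, with 32 and 46 against 88 and 123 counts, and GRHL3, with 0 and 0 against 48 and 56. In NCI-H1703R 1 was called, and 3 with the block: KLF5, a zinc finger factor of epithelia, fell from 651 and 673 to 34 and 59 counts (-3.91, SE 0.25, adjusted p = 0.00137).

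Mesenchymal genes moved in both directions. In NCI-H1581R, 12 of 23 were called, 3 higher and 9 lower, with a median log2 fold change of -0.68, where 7.63% of all genes were called higher and 7.44% lower. FN1, which encodes fibronectin, rose from 21 and 57 to 28023 and 36165 counts (9.63, SE 0.38, adjusted p = 4.93e-05), and FBN1, the fibrillin gene, rose from 64 and 101 to 758 and 749 (3.14, SE 0.26). The matrix protease gene MMP2 fell from 5193 and 7059 to 279 and 279 counts (-4.50, SE 0.20), and THY1, a surface marker of fibroblasts, fell from 1674 and 1807 to 91 and 79 (-4.41, SE 0.23). The fibroblast markers DCN and LUM were lower in the same variant, with 3 to 29 counts against 1647 to 4275 in NCI-H1581, and the part of such cells in these changes was not tested. COL1A1, a chain of collagen I, fell from 2065 and 2284 to 831 and 1297 counts in NCI-H1581R (-1.09, adjusted p = 0.031). In NCI-H1703R, 8 of 23 were called, 4 higher and 4 lower, with a median of -0.23, where 7.06% of all genes were called higher and 7.67% lower. There COL1A1 rose from 39 and 30 to 999 and 827 counts (4.65, SE 0.23, adjusted p = 0.000742). FN1, added because it is named for NCI-H1581R, fell in NCI-H1703R from 334 and 341 to 208 and 218 counts (-0.74, adjusted p = 0.0591). NT5E, which encodes the ectonucleotidase CD73, fell from 2326 and 2043 to 269 and 257 counts (-3.13, SE 0.11, adjusted p = 0.000305), and CALD1, which encodes caldesmon, fell by 1.65 (SE 0.17).

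Among 13 other transcription factors of the switch, 8 were called in NCI-H1581R, 6 higher and 2 lower, although the list's median was -0.41, beside 15.1% of all genes called. SOX9 rose from 261 and 349 to 1234 and 1694 counts (2.21, SE 0.23, adjusted p = 0.00193), TWIST1, a basic helix-loop-helix factor of the mesoderm, rose from 338 and 428 to 1434 and 1463 (1.87, SE 0.18, adjusted p = 0.00156), and SOX4 fell from 381 and 597 to 27 and 39 (-3.93, SE 0.36, adjusted p = 0.0011). In NCI-H1703R, 3 were called, 1 higher and 2 lower, and 5 with the replicate block, beside 14.7% and 34.9% of all genes. SOX4 fell by 0.67 and TCF3 by 0.34 on the log2 scale. FOXC1 and FOXC2, also of this list, and the 6 loci of the miR-200 family, known repressors of ZEB1 and ZEB2, were not analysed here.

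Partners of the switch proteins and other filament genes are to be read against the same shares of all genes, 15.1% in NCI-H1581R and, in NCI-H1703R, 14.7% without and 34.9% with the block. Of 7 catenins and linkers, 2 were called in NCI-H1581R, CTNNA2 and JUP (plakoglobin), of which JUP fell from 4916 and 5161 to 2952 and 3455 counts (-0.71, SE 0.17, adjusted p = 0.0441). In NCI-H1703R CTNND1 (p120 catenin) rose by 0.62 (SE 0.10, adjusted p = 0.0216), and 2 were called with the block. Of 11 co-repressors that SNAIL and ZEB factors recruit, edgeR called 0 in NCI-H1581R, where 2 had an unadjusted p under 0.05 and DESeq2 called 1. In NCI-H1703R 1 was called, the LIM protein gene AJUBA (-0.73, SE 0.11, adjusted p = 0.019), and 6 with the replicate block. Of 9 other intermediate filament genes, 2 were called in NCI-H1581R, both lower: PRPH, the neuronal peripherin, fell from 531 and 480 to 43 and 53 counts (-3.46, SE 0.32), and NES, which encodes nestin, fell from 4745 and 5157 to 1844 and 2278 (-1.32, SE 0.17). In NCI-H1703R 1 was called, and 2 with the block: KRT18, a keratin of simple epithelia, fell from 2380 and 2188 to 109 and 94 counts (-4.56, SE 0.14, adjusted p = 0.000199).

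**Figure D5:**
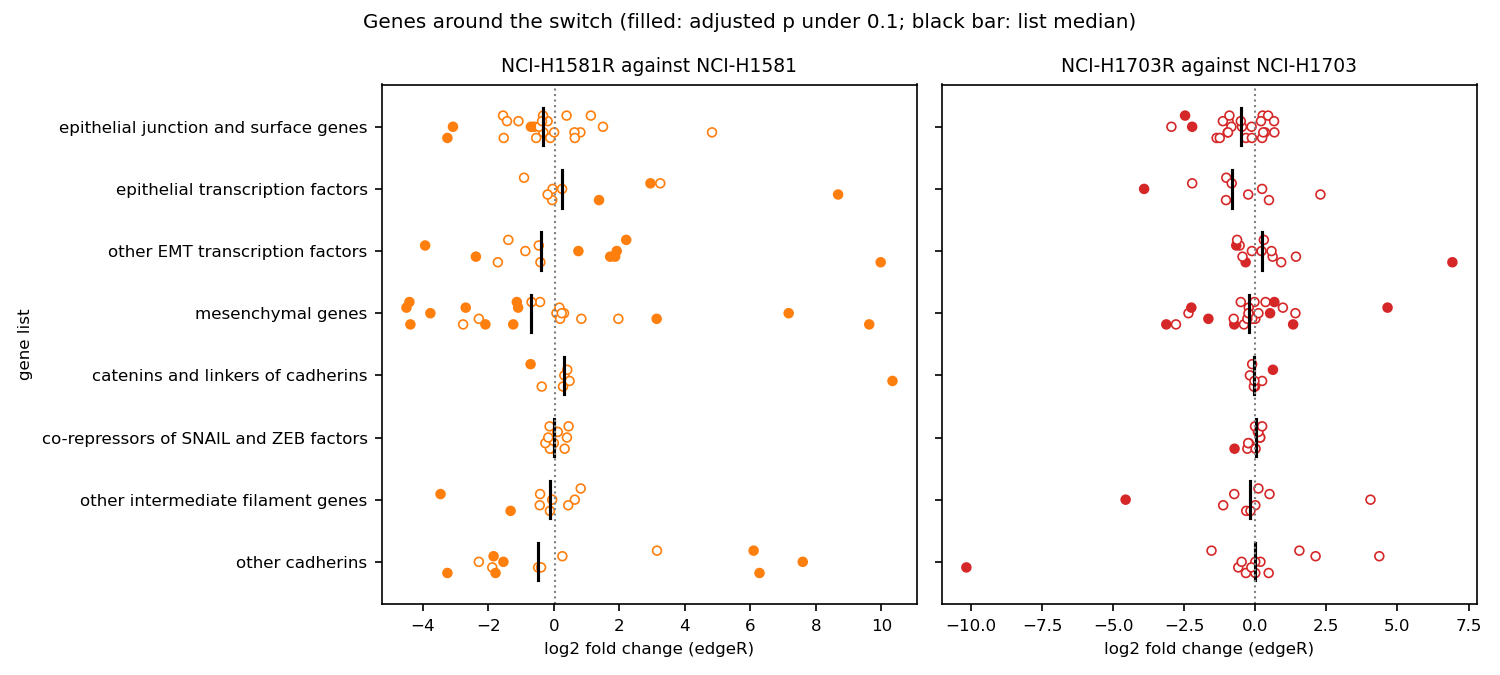
Log2 fold changes of the genes of 8 lists around the switch in NCI-H1581R against NCI-H1581 and in NCI-H1703R against NCI-H1703. Each point is a gene, filled where the adjusted p was under 0.1, the black bar is the list's median, and the dotted line the median of all genes. The sizes of genes such as GRHL3, CTNNA2, POSTN, CDH9 and CDH4, which had 5 counts or fewer in each library of one variant, depend on the prior count and are no measure of size. The mesenchymal genes and the other cadherins spread to both sides, and the co-repressors stay close to 0.

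Across the 8 libraries, the genes whose profile was most like that of a member were sought by Pearson's r of log2(CPM + 1) among 11173 genes with at least 5 CPM on average for the 6 members that reached that level. These r values describe 4 variants in 2 replicates, and large differences between the lines enter all of them. ZEB1 was most like MEGF9 (r = 0.992), SPAG1 (0.991) and GALNT7 (0.989), and ZEB2 was most like OGDHL (0.992), ACTA2 (0.991) and APLP1 (0.988). ACTA2, the smooth muscle actin gene, stood at 68.1, 15.9, 2.44 and 6.02 CPM in NCI-H1581, NCI-H1581R, NCI-H1703 and NCI-H1703R, beside 93.0, 15.7, 0.488 and 5.51 CPM for ZEB2. CDH2 was most like ENSG00000275118 (0.985), TMSB4X (0.984) and TFAP2C (0.981), all 3 highest in NCI-H1703. EPCAM was most like ARHGAP45, VWA5A and GGT7 (0.997, 0.996 and 0.995), but 868 genes exceeded 0.95 for EPCAM, beside 20 for CDH2. VIM was most like NRGN (0.989), SLC19A1 (0.988) and MATK (0.987), and SNAI1 was most like BLOC1S3 (0.977), PRKD2 (0.975) and TOR3A (0.973).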

How the data were processed

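RNA of 8 cultures was sequenced as paired reads. The authors ran Salmon against GRCh38 and imported the transcript estimates with tximport, and the submitters' processing notes also name cutadapt. Versions, the transcript annotation, the tximport scaling and the strand setting are not given in the sources used here, so reads of antisense genes cannot be told apart from those of their partners. What was deposited per gene are estimated counts (expected counts), rounded to whole numbers and not normalised. Symbols and lengths came from GENCODE 44 on GRCh38, in which 34495 of 37441 identifiers matched.

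Log2 fold changes and two-sided p-values were computed with edgeR 4.0.16 in R 4.3.3 (TMM normalisation, quasi-likelihood test) for 18203 genes with at least 10 counts over the 8 libraries, on the 4 libraries of each comparison. The difference between lines was an interaction term over all 8 libraries. A gene was called at a Benjamini-Hochberg adjusted p under 0.1. The standard error (SE) was the log2 fold change divided by the square root of F. No fold change is given for members where both variants compared had a mean under 10 counts. CPM used TMM factors over all 8 libraries, and levels per length used the median length of a gene's protein-coding transcripts. The models were tested on simulated data.

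The members and gene lists were chosen with earlier results of these data known. All 10 members are given in each comparison. Of each list the text gives counts and medians, and for each change within a line it names up to 2 called genes at either extreme of the log2 fold change, from those that averaged 5 CPM or more. Some called list genes are counted but not reported here by name. Repeat libraries differed by more than sampling noise (chi-square over its degrees of freedom, 23.3 to 96.8). Per the growth protocol in the labels, the second replicate was a repeat of the seeding and harvest. Replicate differences over 11174 genes correlated between the variants of a line (r = 0.196 for NCI-H1581, r = 0.406 for NCI-H1703). Between cultures of different lines r ranged from -0.452 (NCI-H1581R and NCI-H1703R) to -0.000786 (NCI-H1581 and NCI-H1703). Values of similar size thus also arose across lines, but none of those was positive, as both within a line were. These correlations do not settle whether the replicates are paired within a line. The reported tests have no block, and the fit with the replicate number as a block is an alternative. The other alternatives were DESeq2 1.42.0, RLE normalisation, no filter, at least 10 counts in every library, a single fit of 8 libraries, a threshold of 0.05, leaving out each library, and another gene length (union of exons). Legacy quasi-dispersions, the MANE Select length and a crossed pairing were added after seeing the data.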

Additional observations from a re-analysis of the deposited data

Results flagged for a closer look

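The change with resistance differed between NCI-H1703 and NCI-H1581, by the interaction of line and variant in edgeR, for 3 of the 10 switch genes. For ZEB2 the log2 change in NCI-H1703 minus that in NCI-H1581 was 6.07 (adjusted p = 3.99e-05), with a fall in both NCI-H1581R libraries and a rise in both NCI-H1703R libraries. For ZEB1 it was -3.91 (adjusted p = 0.000566), with a rise in both NCI-H1581R libraries. For CDH2 it was -4.08 (adjusted p = 0.00108), with the larger fall in both NCI-H1703R libraries. Groups of 2 libraries are too small for a search for single deviating libraries.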

How the results depend on the processing

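Apart from leaving out libraries, 289 of the recomputed log2 fold changes of members kept their direction and side of the threshold, 10 newly passed it, 3 no longer passed it and 3 reversed. The 3 that reversed were the difference between the lines for CDH1, 0.00 as reported, which was -0.03 with the replicate block within each line, with the block shared by the lines and with legacy quasi-dispersions. The number of members called in NCI-H1581R was 5 in a single fit of 8 libraries, against 3. In NCI-H1703R it was 4 with the replicate block, against 2. In NCI-H1703R against NCI-H1581R it was 2 with at least 10 counts in every library, against 4, and 4 with crossed pairing, where 11063 genes were called against 9564. Under that filter EPCAM and ESRP1 were not tested, and ZEB2 and SNAI1 were still called. The cause of the other changes was not tested. With the block no other call of a member changed than those named with the results.

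Leaving out 1 library, where a lone library is assumed to vary like the others, gave 1 to 2 members called in NCI-H1703R and 2 to 5 in NCI-H1703R against NCI-H1581R. The log2 values that changed sign ranged from -2.48 to 0.82 for EPCAM in NCI-H1703R, from -0.05 to 1.05 for CDH1 in NCI-H1703 against NCI-H1581, and, in NCI-H1703R against NCI-H1581R, from -0.20 to 1.27 for CDH1, -0.06 to 0.18 for CDH2 and -0.26 to 0.54 for ZEB1, which passed the test without the second NCI-H1581R replicate (adjusted p = 0.0563). For the difference between the lines they ranged from -0.69 to 0.89 for CDH1 and -1.60 to 1.72 for EPCAM. None of these was called as reported.

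Over all genes, 2743 were called in NCI-H1581R, from 1793 at a threshold of 0.05 to 4539 in the single fit, and 1122 to 5186 with 1 library left out. In NCI-H1703R 2683 were called, from 1640 at 0.05 to 6357 with the replicate block, and 274 to 1686 with 1 library left out. The depth limits CDH1, ESRP1, ESRP2 and SNAI2, and levels per length depend on the transcript length taken.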

Other observations

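Some keratins were higher in replicate 2 than in replicate 1 in all 4 variants, and others were not. KRT5 had 1, 0, 1 and 0 counts in the first replicates of NCI-H1581, NCI-H1581R, NCI-H1703 and NCI-H1703R, and 47, 41, 35 and 38 in the second. KRT17, chosen after seeing KRT5, had 30, 16, 11 and 11 counts in the first and 126, 96, 89 and 110 in the second, and KRT7 had 21, 22, 83 and 61 against 169, 157, 169 and 176. KRT8 went the other way, with 100, 143, 269 and 122 counts in the first and 81, 113, 147 and 77 in the second. KRT18 counts were also lower in the second (70, 77, 2380 and 109 against 43, 37, 2188 and 94), although not in CPM in NCI-H1703, and KRT19 was mixed, with 87 and 66 in NCI-H1703 and more in the second replicate of the other 3 variants. KRT14 stayed at 0 to 2 counts in all 8 libraries. No gene was at 20 or more counts in every first replicate and at 3 or fewer in every second.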
